A study of Homo sapiens with 9 samples.

Results

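Hairpin G7 is one of 2 short hairpin RNAs against CBX5 that were stably expressed in HCC827 cells, and here it is compared with a non-silencing control hairpin (NS). HCC827 is a human cell line from a lung adenocarcinoma, with EGFR constitutively activated by mutation, and the series' title concerns loss of CBX5 and resistance to EGFR inhibitors. Its members follow the labels: the 3 libraries labelled CBX5 shRNA2 (G7) against the 3 control libraries, 6 of the 9 libraries in all. The other 3 libraries carry hairpin G1 against the same gene. They are used to test where the hairpins differ, and they also entered the shared filter, scaling and estimate of spread; with the control and G7 libraries alone, 2592 genes were called in place of 3014. All cells grew in DMEM with serum, and the labels name no drug. The design text calls the 3 libraries of a group biological replicates but does not say that they came from separate transductions, so each p-value measures the spread between these libraries, which may be that of 1 line per hairpin.

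CBX5 encodes HP1 alpha, a reader of histone H3 methylated at lysine 9, the mark of constitutive heterochromatin. HP1 proteins bridge marked nucleosomes, recruit further methyltransferase and help to keep pericentromeric repeats and certain gene families silent. The clustered zinc finger genes of chromosome 19 are a known home of this mark outside pericentromeres. CBX1 and CBX3 encode the other members of the family, HP1 beta and HP1 gamma.

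The 6 libraries held between 12701561 and 22372353 counts. G7 replicate 3 stood apart from the other libraries with this hairpin: the chi-square per degree of freedom of its counts was 24.9 against replicate 1 and 19.3 against replicate 2, while replicates 1 and 2 differed by 1.505 and control libraries by 2.79 to 5.20. Mitochondrially encoded genes took 19.8% of the counts in G7 replicate 3, 14.4% and 14.6% in the other G7 libraries, and 15.04%, 17.7% and 15.6% in the control libraries. The first principal component of the 6 libraries held 42.2% of the variance and separated the hairpins, and the second held 19.04% and set G7 replicate 3 and control replicate 2, those with the highest mitochondrial share in their groups, apart from the other libraries. Values without G7 replicate 3 are therefore given beside the results that rest on it. Markers of a lung epithelial line were present, with KRT8 at 4111, 3837 and 4370.1 CPM (counts scaled to a common library size by TMM) in the control libraries and 5299, 5083 and 4813 with G7, but the lineage factor NKX2-1 was listed at 0 in each of the 6 libraries. Summed over 12 lung epithelial markers, levels ran from 11100.0 to 12050.0 CPM in control and from 12940.0 to 13600.0 CPM with G7, mostly from keratins. In the test described below, 3 of the 11 tested markers were higher with G7, 1 was lower and 7 were not called. The 9 fibroblast markers summed to 13.2 to 14.8 CPM and the 9 blood cell markers to 6.06 to 7.68 CPM over the 6 libraries. The 7 endothelial markers summed to 86.4 to 94.8 CPM, mostly from PECAM1.

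CBX5 (ENSG00000094916, GRCh38 chr12:54230940-54280133, minus strand) was measured at 369.7, 377 and 361 CPM in the control libraries and at 204, 204 and 201 CPM with G7. The groups were far apart and tight, and the RNA fell to 203 ± 1.54 CPM from 369 ± 8.11 (SD, n = 3 each). The log2 change was -0.86 ± 0.038 (SE), or -45.0%, with an adjusted p of 5.09e-11. Here and below, calls and adjusted p come from the quasi-likelihood test of edgeR, corrected by Benjamini-Hochberg. The hairpin G1 left less (log2 -1.38 against the same controls), and the difference between the hairpins was -0.52 at adjusted p = 5.63e-09 in the same test.

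Across the genome, 3014 of 13264 tested genes were called at an adjusted p under 0.05 (22.7%), 1735 higher (13.1%) and 1279 lower (9.64%). These changes were small: the median absolute log2 change of the called genes was 0.28, and 89.3% of them changed by less than 1.5-fold. Above 2-fold, 24 genes were higher and 35 lower. The control and G7 libraries did not overlap in 4680 of the 13264 tested genes (35.3%), and in 2897 of the called ones. Most genes named below were picked among called genes with such groups, so the lack of overlap adds no support for them. Tested against a change of 1.2-fold with edgeR's glmTreat, 169 genes were higher and 128 lower, and against 1.5-fold 5 and 5. With upper quartile scaling the split of calls turned to 1398 higher and 1603 lower, so small changes are read below relative to the median of all genes, which was 0.0093 with TMM scaling and -0.018 with upper quartile scaling.

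The rest of the HP1 and H3K9 methylation machinery changed in small steps. Its genes were called more often than genes at large, by a margin that depended on the setting. Of 23 tested genes besides CBX5, 7 were higher (30.4%, against 13.1% of all tested genes) and 3 lower, with a median log2 change of 0.05. Without control replicate 2, 4 were higher and 1 lower, and with DESeq2 4 were higher and 3 lower. CBX1 had 87.2, 87.6 and 75.3 CPM in control and 93.4, 97.7 and 92.3 with G7, a log2 change of 0.18 ± 0.055 at adjusted p = 0.0224. CBX3 had 0.17 at adjusted p = 0.0481, with overlapping libraries, and its call ended in most alternatives; that of CBX1 ended without control replicate 3 or without G7 replicate 2. The largest rises in the list were those of CHAF1A (0.44) and CHAF1B (0.39), subunits of the assembly factor that loads histones behind the replication fork, and of the H3K9 methyltransferase SUV39H2 (0.42, adjusted p = 0.0926 without G7 replicate 3). The H3K9 methyltransferase SETDB2 (-0.30), the chromatin remodeller ATRX (-0.17) and the HP1-binding zinc finger protein POGZ (-0.15) were the 3 lower ones. In the DNA methylation list 5 of 17 genes were higher and 0 lower, among them the maintenance methyltransferase DNMT1 (0.40) and its partner UHRF1 (0.68).

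A minority of the zinc finger genes of chromosome 19 were higher, many of them between 52 and 54 Mb. Of 144 tested numbered zinc finger genes on it, 32 were higher, 6 lower and 106 not called, with a median log2 change of 0.08, against 9 higher and 16 lower of 190 on the other chromosomes. Among the other 730 tested genes of chromosome 19, 113 were higher and 45 lower (15.5% higher). Between 52 and 54 Mb, 15 of 23 zinc finger genes were higher and 0 lower, and of the other 11 genes tested there 3 were higher and 1 lower. Between 56 and 58 Mb, 6 of 21 zinc finger genes were higher and 2 lower. These windows, and that between 22 and 24 Mb described below, were picked from a count over chromosome 19 in bins of 2 Mb. Other bins had few calls among zinc finger genes. Between 8 and 10 Mb 0 of 11 were called, and between 36 and 38 Mb 1 of 17 was higher and 1 lower. Between 44 and 46 Mb 0 of 11 were higher and 1 lower. ZNF320 (GRCh38 chr19:52863790-52897693) was measured at 16.5, 15.8 and 14.99 CPM in control and 23.7, 23.1 and 21.3 with G7, a log2 change of 0.53 ± 0.076 at adjusted p = 7.45e-05. ZNF347 went from 20.7, 25.3 and 21.6 CPM to 31.2, 33.03 and 33.2 (0.53) and ZNF813 from 38.01, 39.9 and 39.3 to 50.04, 50.7 and 54.2 (0.40). In all 3 of these genes each G7 library lay above each control library.

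Between 22 and 24 Mb 4 zinc finger genes were tested and called higher, but only ZNF91 and ZNF675 also had a value with the control and G7 libraries alone. ZNF91, a repressor of retrotransposons, had 8.61, 8.24 and 7.85 CPM in control and 11.1, 11.7 and 14.8 with G7 (log2 0.61 ± 0.12, adjusted p = 0.00137), and ZNF675 had 0.73. The other two, ZNF681 and ZNF724, were near the floor in control, passed the count filter through the G1 libraries, and had no adjusted p in DESeq2. ZNF681 had 2, 1 and 2 reads in the control libraries and 28, 6 and 23 with G7, and ZNF724 had 2, 1 and 2 reads against 15, 9 and 12. Their fitted log2 changes of 3.02 ± 0.56 and 2.37 ± 0.48 were the largest rises among called zinc finger genes but rest on these few reads, and they are no bound. Members of these clusters share much of their sequence, so reads may be split between copies and each single value is uncertain. The changes with G1 against the same control libraries were 0.57 for ZNF320, 0.67 for ZNF347, 0.50 for ZNF91 and 0.96 for ZNF675, and none of these 4 differed between the hairpins in the test of the difference (adjusted p = 0.641, 0.105, 0.441 and 0.159).

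Few long non-coding genes were called higher. Of 539 tested intergenic ones, 16 were higher (2.97%) and 60 lower (11.1%), with a median log2 change of -0.17. Of 354 antisense ones, 4 were higher (1.13%) and 27 lower (7.63%), with a median of -0.14. The shares lower lie near or under the 9.64% of all genes, and the shares higher under the 13.1%. NEAT1, the scaffold of paraspeckles, had 431, 441 and 428 CPM in control and 310.2, 317 and 318 with G7 (-0.46 ± 0.04). The host gene of the miR-29 family, MIR29B2CHG, fell from 61.4, 61.9 and 64.5 CPM to 36.4, 39.7 and 37.4 (-0.73), and HOTAIR changed by -0.46. Whether the counting used strand is not given in the sources used here, so an antisense gene may hold reads of its partner. The same holds for genes named here that overlap a neighbour on the opposite strand, such as CBX3 with HNRNPA2B1, CRELD2 with ALG12 and ATG5 with PRDM1.

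**Figure D1:**
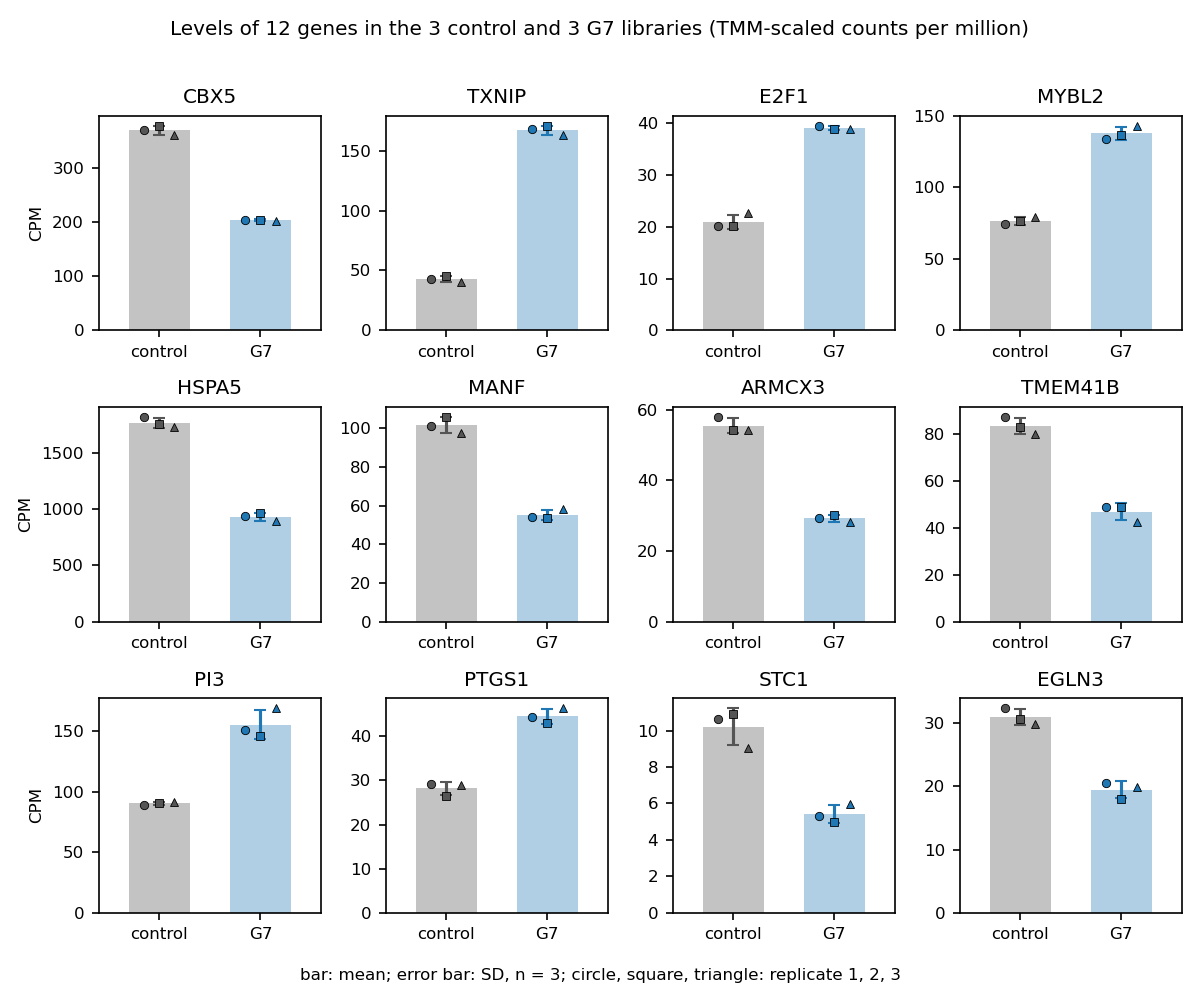
Levels of 12 genes in TMM-scaled CPM (vertical axis, from 0) in the 3 control and 3 G7 libraries. Bars are means, error bars SD (n = 3), and circle, square and triangle mark replicates 1, 2 and 3. In each panel the 3 G7 points lie on one side of the 3 control points, for CBX5 between 201 and 204 against 361 to 377. Such groups were a condition for naming most of these genes.

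The largest rise by the ranking used (mean of at least 2 CPM) was that of TXNIP (GRCh38 chr1:145992435-145996600), a thioredoxin-binding arrestin that restrains glucose uptake. It had 42.8, 45.8 and 40.05 CPM in control and 168, 170.4 and 163 with G7, a log2 change of 1.96 ± 0.05 at adjusted p = 6.04e-15. ARRDC4, its closest relative, rose from 3.40, 3.64 and 3.09 CPM to 7.14, 7.45 and 7.13 (1.10), while a further arrestin-domain gene, ARRDC3, fell from 12.5, 13.3 and 13.7 to 7.32, 9.13 and 7.83 (-0.72). In a list of MondoA, MAX network and arrestin-domain genes, which does not hold TXNIP itself, 2 of 16 were higher and 2 lower. These shares, 12.5% each, lie near the 13.1% and 9.64% of all tested genes. Other large rises were MYH15, a myosin heavy chain (1.55), the formin FMNL3 (1.09), the secreted pentraxin NPTX1 (1.08), the epithelial serpin SERPINB7 (1.03) and the chloride channel regulator CLCA2 (0.85), at means over the 6 libraries of 2.41 (NPTX1) to 7.98 CPM (SERPINB7).

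Among the largest falls were the cytokine receptor CSF3R (-1.10), the cornified envelope crosslinker TGM1 (-1.07), the non-coding RNAs PURPL and FTX (-0.98 and -0.95) and the outer nuclear membrane protein SYNE1 (-0.84). ARMCX3, a mitochondrial outer membrane protein encoded on X, fell from 57.9, 54.3 and 54.1 CPM to 29.3, 30.1 and 28.2, a log2 change of -0.92 ± 0.055 at adjusted p = 1.92e-09. Its fall with G7 was larger than that with G1 (-0.58, adjusted p of the difference 7.02e-05). The ranking of falls also held 4 genes of the endoplasmic reticulum (ER), which lead the gene group described next.

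Genes for protein folding in the ER fell together. Of 24 tested ER chaperones and folding enzymes, 20 were lower and 0 higher, with a median log2 change of -0.53, where 9.64% of all genes were lower. HSPA5 (BiP), the main Hsp70 of the ER and the sensor-binding chaperone of the unfolded protein response, had 1815, 1754 and 1729 CPM in control and 935, 964 and 893 with G7, a log2 change of -0.92 ± 0.046 at adjusted p = 3.56e-10. The secreted stress protein MANF had 101, 106 and 97.6 CPM and 53.9, 53.4 and 58.05 (-0.88 ± 0.052). Every G7 library of both genes lay far below every control library, and groups that did not overlap were a condition for naming them. The nucleotide exchange factor HYOU1 (-0.71), the co-chaperones DNAJB9 (-0.67), DNAJB11 (-0.53) and DNAJC3 (-0.53), the disulfide isomerases PDIA4 (-0.60) and PDIA6 (-0.34), the Hsp90 of the ER HSP90B1 (-0.58) and the lectin chaperones CALR (-0.55) and CANX (-0.42) fell as well. The 4 that were not called were SIL1 (-0.23), ERO1A (-0.08), TXNDC11 (-0.06) and FKBP2 (-0.06).

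The classical ER stress element was searched in the 250 bases before each gene's start, since it is the sequence through which ATF6 and XBP1 with NF-Y are known to act on such genes. It reads CCAAT, then 9 bases of any kind, then CCACG, was searched on both strands, and contains the CCAAT box of NF-Y. In 27305 RefSeq promoters (build GRCh38.p14), 22 held it (0.0806%). By symbol, 9312 tested protein-coding genes matched a promoter, and 12 of them held the element. Of these 12 genes, 9 were lower with G7 and 0 higher, against 9.51% lower and 14.9% higher among the 9312. The 250 bases before HSPA5 are shown because this gene leads the group (chr9:125241344-125241593, minus strand, 5′ to 3′, element in capitals).
HSPA5 promoter: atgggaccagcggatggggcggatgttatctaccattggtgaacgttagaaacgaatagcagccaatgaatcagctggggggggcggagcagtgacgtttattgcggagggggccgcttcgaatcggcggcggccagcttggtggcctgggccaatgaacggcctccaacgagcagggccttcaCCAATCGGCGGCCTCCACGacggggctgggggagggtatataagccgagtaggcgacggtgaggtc

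The elements of the other 8 lower genes are shown to compare the spacer, 5′ to 3′ on the strand that reads CCAAT first, with the fixed letters in capitals. HSP90B1 holds 2 of them. The element of CRELD2 is also that of ALG12, which starts on the opposite strand.
CRELD2 (chr22:49918554-49918572): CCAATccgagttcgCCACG
ERO1B (chr1:236282183-236282201): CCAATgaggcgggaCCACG
FICD (chr12:108515123-108515141): CCAATgggagtggcCCACG
HSP90B1, distal (chr12:103930216-103930234): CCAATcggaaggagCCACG
HSP90B1, proximal (chr12:103930321-103930339): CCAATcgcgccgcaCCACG
CALR (chr19:12938384-12938402): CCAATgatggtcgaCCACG
CANX (chr5:179698778-179698796): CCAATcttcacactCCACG
XBP1 (chr22:28800603-28800621): CCAATcgcggagggCCACG
SERP1 (chr3:150546710-150546728): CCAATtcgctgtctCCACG

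The 9 genes with the element changed by -0.92 (HSPA5) to -0.31 (SERP1). CRELD2, a secreted ER stress protein, had 28.9, 25.1 and 27.6 CPM in control and 18.2, 16.8 and 15.8 with G7 (-0.68 ± 0.084). ERO1B, an oxidase of the folding pathway, changed by -0.66, and FICD, which AMPylates BiP, by -0.61. XBP1, the transcription factor of the response, had 145, 136 and 133 CPM and 104, 107 and 103 (-0.40 ± 0.046). In each of these 4 genes the groups did not overlap. The other 3 genes with the element were not called: ALG12 had -0.29 (adjusted p = 0.0646), TRIM5 -0.16 (adjusted p = 0.0792) and TMEM120A -0.02 (adjusted p = 0.868). Many ER genes that fell have no such element in this window, MANF, HYOU1 and SDF2L1 (-0.53) among them, and the match itself is a description of letters and not of binding.

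Other steps of ER quality control fell less widely. Of 20 tested genes of ER-associated degradation, 6 were lower and 1 higher, led by HERPUD1 (from 274, 268 and 269 CPM to 170.4, 162 and 166, -0.70 ± 0.041) and SEL1L (-0.48), the adaptor of the HRD1 ligase. Of 42 translocon, signal peptidase and export genes, 15 were lower and 1 higher (median -0.06), with the signal peptidase subunit SEC11C at -0.49 and the translocon partner SEC63 at -0.34. Of 17 tested ER stress sensors and factors, 7 were lower, 1 higher (TXNIP) and 9 not called (median -0.12). The sensors ERN1 (-0.27) and EIF2AK3 (-0.33) and the factor ATF4 (-0.19) were among the lower ones. Of 30 ATF4 targets and amino acid supply genes, 16 were lower and 1 higher (median -0.16): the stress protein NUPR1 at -0.84, the transsulfuration enzyme CBS at -0.67, the transporter SLC1A4 at -0.55 and asparagine synthetase ASNS at -0.51.

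The difference between the hairpins was uneven within the ER group. HERPUD1 had -2.54 with G1 against -0.70 with G7, a difference of -1.84 at adjusted p = 3.43e-15. HSPA5 had -1.97 and -0.92 (difference -1.05, adjusted p = 5.61e-12). For CANX the values were -0.42 and -0.42, for CALR -0.66 and -0.55, and for HSP90B1 -0.65 and -0.58, and these 3 differences were not called (adjusted p = 0.977, 0.0647 and 0.244). Of the 24 ER chaperones and folding enzymes, 11 were lower with G1 than with G7, 2 were higher and 11 were not called.

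Cytosolic chaperones and proteasome subunits were higher in many cases, as were common reference genes (8 of 15 higher, 0 lower, median 0.155). Of 32 tested cytosolic chaperones, 18 were higher and 1 lower (median 0.20), and of 31 proteasome subunits 14 were higher and 0 lower (median 0.19). HSP90AA1, the inducible cytosolic Hsp90, had 2606, 2676 and 2409 CPM in control and 3550.1, 3631 and 3723 with G7 (0.50 ± 0.051). The constitutive Hsp70 HSPA8 changed by 0.48, the chaperonin subunit CCT5 by 0.31 and the proteasome subunit PSMD1 by 0.43.

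**Figure D2:**
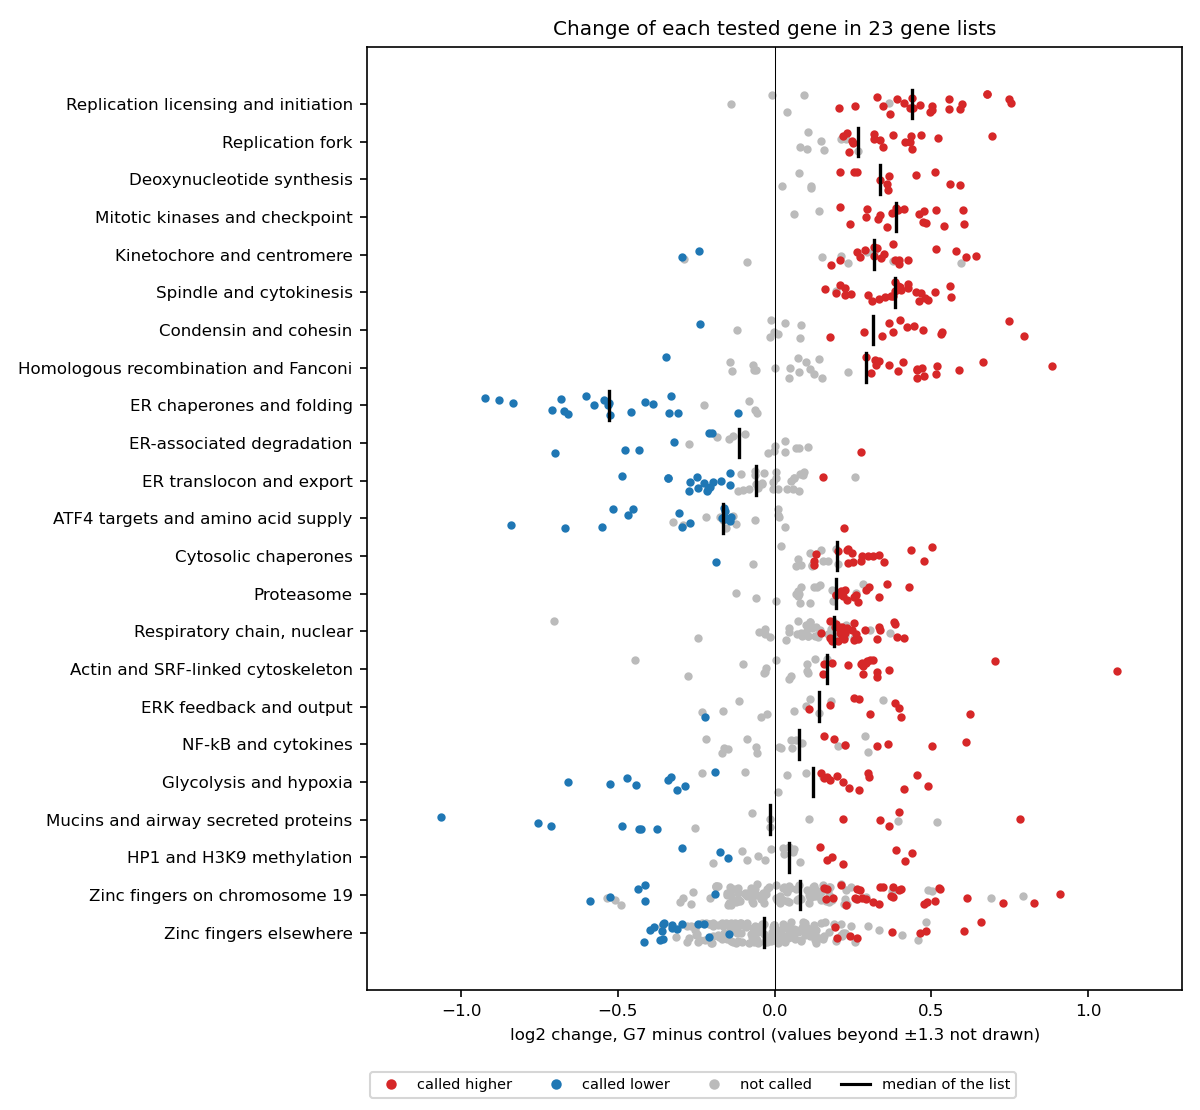
Log2 change (horizontal axis, G7 minus control) of each tested gene in 23 lists, with called higher genes in red, called lower genes in blue, other genes in grey and a black bar at the list's median. The replication and division lists lie right of 0 (medians 0.27 to 0.44) and the ER chaperones left of it (median -0.53), while 2 zinc finger genes with larger values lie beyond the axis.

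Genes of DNA replication rose at each step of the process. Of 27 origin licensing and initiation genes, 22 were higher and 0 lower (median 0.44), and 17 of 25 fork genes (0.27) and 11 of 15 genes of deoxynucleotide synthesis (0.34) were higher, with 0 lower in both. The helicase subunit MCM6 had 58.7, 53.9 and 54.4 CPM in control and 91.5, 91.3 and 84.3 with G7 (0.68 ± 0.05, adjusted p = 3.74e-08). The loading factor MCM10 changed by 0.75, the sliding clamp PCNA by 0.69, the primase-polymerase subunit POLA2 by 0.52 and the ribonucleotide reductase subunit RRM2 by 0.56. In each of these genes the lowest G7 library lay above the highest control library, which was a condition for naming them.

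The regulators of that program rose in part. Among 17 tested E2F, RB and DREAM genes, 8 were higher and 1 lower. E2F1 had 20.2, 20.1 and 22.6 CPM in control and 39.5, 38.9 and 38.9 with G7 (0.89 ± 0.064), and MYBL2, which joins the MuvB core to switch on mitotic genes, had 74.1, 76.3 and 79.4 CPM and 134, 137 and 143 (0.85 ± 0.047). E2F2 (0.79), FOXM1 (0.44), TFDP1 (0.31) and E2F4 (0.29) were also higher, and the pocket protein RBL2 (-0.20) was the one that was lower. E2F sites, searched as TTT, then 2 bases that are each G or C, then CGC, on both strands, which may overlap one another, were present in 2.79% of all RefSeq promoters of this length, in 4.39% of those of tested genes, in 6 of 23 licensing genes and in 7 of 21 fork genes. Of the 409 tested genes with a site, 22.0% were higher and 6.85% lower with G7. Among all 9312 tested genes matched to a promoter, 14.9% were higher and 9.51% lower. The 250 bases before MCM6 are shown because it had the smallest p of the licensing list (chr2:135876444-135876693, minus strand, 5′ to 3′, 2 stretches that each hold 2 overlapping sites, one per strand, in capitals).
MCM6 promoter: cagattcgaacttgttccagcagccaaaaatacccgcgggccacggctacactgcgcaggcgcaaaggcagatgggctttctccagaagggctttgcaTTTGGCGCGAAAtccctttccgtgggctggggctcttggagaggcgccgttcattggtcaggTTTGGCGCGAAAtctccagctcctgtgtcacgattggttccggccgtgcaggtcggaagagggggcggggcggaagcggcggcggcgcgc

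Genes of mitosis rose as well. Of 29 tested spindle and cytokinesis genes, 28 were higher and 0 lower (median 0.38; 25 higher without G7 replicate 3), and of 21 mitotic kinases and checkpoint genes 19 were higher and 0 lower (0.39). Kinetochore and centromere genes had 19 higher and 2 lower of 30, and condensin and cohesin genes 13 higher and 1 lower of 22. The motor KIF11 had 80.9, 86.9 and 80.1 CPM in control and 109, 107 and 112 with G7 (0.40 ± 0.047), the cytokinesis scaffold ANLN changed by 0.56, the checkpoint kinase BUB1 by 0.54 and the condensin subunit NCAPH by 0.75. The kinetochore protein MIS12, which fell from 78.9, 77.2 and 70.3 CPM to 60.2, 63.9 and 60.4 (-0.29), went against its list. The cell cycle homology region, TTTGAA read on both strands, the element of mitotic promoters bound by the MuvB complex, was present in 15 of 27 spindle and cytokinesis promoters and in 6 of 16 of mitotic kinases, against 13.6% of all RefSeq promoters and 8.23% of those of tested genes. Of the 766 tested genes with it, 18.7% were higher and 10.7% lower with G7, against 14.9% and 9.51% of all 9312 matched genes. The 250 bases before KIF11 are shown as an example from the spindle list (chr10:92592880-92593129, plus strand, 5′ to 3′, copy in capitals on the opposite strand).
KIF11 promoter: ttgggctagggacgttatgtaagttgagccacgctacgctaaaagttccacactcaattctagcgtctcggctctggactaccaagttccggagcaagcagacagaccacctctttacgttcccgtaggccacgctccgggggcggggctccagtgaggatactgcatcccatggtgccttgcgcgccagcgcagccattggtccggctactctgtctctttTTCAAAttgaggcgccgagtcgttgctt

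CDK inhibitors were called higher in part. Of 6 tested, 3 were higher and 0 lower (median 0.42): CDKN2C (0.60), CDKN2D (0.54) and CDKN3 (0.45). The call of CDKN2D ended in DESeq2 and without any one of the control libraries or of G7 replicates 1 and 2. Of 21 tested cyclins, CDKs and partners, 15 were higher and 1 lower. The lower one was CDK6, with 183, 195 and 175 CPM in control and 139, 142 and 147 with G7 (-0.37 ± 0.045), and CDK1 went from 118, 109.6 and 108 to 164, 174 and 145 (0.52 ± 0.064). CDKN1A, the p21 inhibitor and p53 target, had 8.16, 7.90 and 9.70 CPM and 8.71, 8.88 and 8.80, with overlapping groups and 0.03 at adjusted p = 0.9. Of 22 tested p53 targets 3 were higher (13.6%, against 13.1% of all tested genes) and 0 lower. In 71 replication-dependent histone genes, most of whose messages lack the poly-A tail used for selection, 19 were tested and 3 were lower, HIST1H2AC by -0.50; near-identical copies make these uncertain.

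The list of hypoxia response and glycolysis genes was mixed: of 28 tested, 13 were higher and 9 lower. The 9 lower ones were the oxygen sensor EGLN3, the stress gene NDRG1, the glucose transporter SLC2A3, the regulatory kinases PFKFB3 and PFKFB4, the hormone ADM, pyruvate dehydrogenase kinase PDK1, the growth factor VEGFA and hexokinase HK2. Among those higher were the glycolytic enzymes LDHA (0.49), PKM (0.45), PGAM1 (0.41), TPI1 (0.30) and ENO1 (0.30).

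EGLN3 had 32.3, 30.6 and 29.9 CPM in control and 20.5, 18.01 and 19.9 with G7, a log2 change of -0.66 ± 0.067 at adjusted p = 1.76e-06. NDRG1 had 113, 118 and 120.3 CPM and 80.99, 80.03 and 82.4 (-0.53 ± 0.047), and SLC2A3 216, 208 and 206 and 153, 152 and 150.2 (-0.47 ± 0.039). None of the groups overlapped in these 3 genes, as the rule for naming them required. PFKFB4 changed by -0.44, ADM by -0.34, PFKFB3 by -0.33, PDK1 by -0.31, VEGFA by -0.29 and HK2 by -0.19. STC1, a secreted glycoprotein that hypoxia is known to induce and that stands outside the list, had 10.7, 10.9 and 9.04 CPM and 5.33, 4.97 and 5.96 (-0.90 ± 0.11).

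Several of these falls were not seen with G1 at a matched size. Against the same control libraries, EGLN3 had 0.07 with G1, SLC2A3 0.01, PDK1 0.04, PFKFB4 0.06 and NDRG1 -0.11, and ADM and STC1 had 0.32 and 0.52. Each of these 7 genes was higher with G1 than with G7 in the test between the hairpins (adjusted p from 4.54e-09 for STC1 to 0.00231 for PFKFB4). STC1 and EGLN3 also stood in the ranking by difference described below, which took only genes called between the hairpins. VEGFA (-0.93 with G1) and HK2 (-0.50) differed the other way, lower with G1 than with G7 (adjusted p = 8.44e-09 and 4.83e-05).

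Secreted airway proteins were also mixed. Of 19 tested mucins and airway secreted proteins, 5 were higher and 7 lower. Elafin (PI3), an antiprotease of inflamed epithelium, had 88.8, 91.01 and 91.4 CPM in control and 151, 146 and 169 with G7, a log2 change of 0.78 ± 0.052 at adjusted p = 7.97e-09. The calprotectin subunits S100A8 (226, 191 and 210.5 CPM in control, 302, 296 and 228 with G7) and S100A9 (1180.3, 1112 and 1122 and 1508, 1498 and 1389) changed by 0.40 ± 0.089 and 0.36 ± 0.049, the antiprotease SLPI by 0.22 and the transglutaminase TGM2 by 0.34. In S100A8 the lowest G7 library, replicate 3, lay just above the highest control library, and without it the change was 0.52. The mucins MUC16 (-0.49), MUC1 (-0.43) and MUC5B (-0.38), the mucin-folding isomerase AGR2 (-0.71) and the antimicrobial proteins BPIFB1 (-0.76) and BPIFA1 (-0.43) were lower. AGR2 had 145, 150.1 and 134 CPM and 83.2, 85.6 and 92.2, and BPIFB1 184, 187 and 192 and 117, 109 and 107.

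With G1, against the same controls, PI3 had -0.60, S100A8 -0.74, S100A9 -0.06 and SLPI -0.36, and each differed between the hairpins (differences of -1.38, -1.14, -0.42 and -0.58, adjusted p = 1.1e-12, 1.42e-08, 1.63e-06 and 2.02e-09). PI3 also stood in the ranking by difference described next, which took only genes called between the hairpins. AGR2 fell more with G7 than with G1 (-0.54, difference 0.18, adjusted p = 0.011). BPIFB1 and MUC16 fell less with G7 than with G1 (-2.05 and -1.71, adjusted p = 1.1e-12 and 1.09e-09 for the differences).

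Over all tested genes the hairpins differed at 5962 (44.9%). The ranking of genes that changed with G7 and moved less or the other way with G1 put further single genes first. PTGS1, which encodes cyclooxygenase 1, had 29.2, 26.4 and 29.04 CPM in control and 44.5, 42.96 and 46.4 with G7 (0.66 ± 0.071), against -1.43 ± 0.086 with G1. The sterol exporter ABCG1 had 0.43 with G7 and -1.24 with G1, the hormone FGF19 0.44 and -1.34, the cytokine lymphotoxin beta (LTB) 0.50 and -1.69, and CLCA2 0.85 and -0.39. Downward, TMEM41B, an ER scramblase needed for autophagosome formation, had 87.3, 82.97 and 80.1 CPM in control and 48.8, 49.05 and 42.6 with G7 (-0.83 ± 0.057), against -0.12 ± 0.055 with G1. ATG5, the autophagy conjugation factor, had -0.53 and 0.17, the immune checkpoint protein VTCN1 (B7-H4) -0.91 and -0.14, the sterol carrier STARD4 -0.63 and 1.17, the mannosyltransferase DPY19L1 -0.66 and 0.61, and CSK, the kinase that restrains SRC, -0.47 and 0.24. This ranking took only genes called between the hairpins, so that call was a condition for these 11 genes and not a result. The same holds for PI3, STC1, EGLN3, ARRDC3 and PEG10, which the ranking also held. For the 11 genes, the adjusted p in the edgeR test of the difference ran from 1.1e-12 (PTGS1) to 4.98e-06 (CLCA2).

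**Figure D3:**
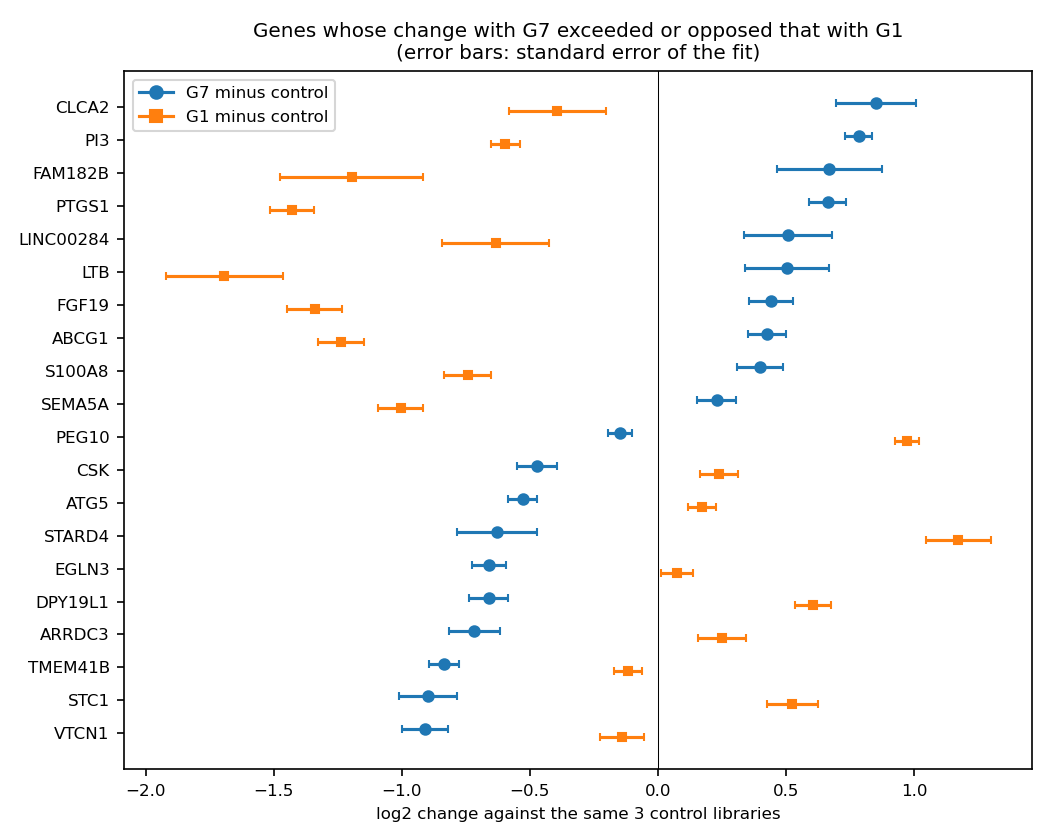
Log2 change (horizontal axis) with its standard error for the 20 genes of the ranking by difference, with G7 (blue circles) and G1 (orange squares) against the same 3 control libraries. In the 10 upper genes G7 is above 0 and G1 below it; in the 10 lower genes G7 is below 0, and G1 is nearer to 0 or above it, as for PEG10 (-0.15 with G7, 0.97 with G1).

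Cholesterol genes were called with G7 about as often as all genes. Of 31, 4 were higher and 4 lower (12.9% each), against 13.1% and 9.64% of all tested genes. INSIG1, which retains the sterol sensor in the ER, was at 0.36. With G1 the median of the list was 0.65 against 0.07 with G7, and 22 of the 31 genes were higher and 5 lower with G1 than with G7.

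Since the study concerns EGFR, its receptor family and outputs were looked at in turn. EGFR itself had 1040.0, 1090.3 and 1031 CPM in control and 1069.9, 1081 and 1143 with G7, overlapping groups with a log2 change of 0.06 ± 0.046 (adjusted p = 0.387). Of 14 tested receptors, ligands and regulators, 3 were higher and 3 lower (21.4% each, against 13.1% and 9.64% of all tested genes). The ligands EREG (3.55, 3.92 and 3.27 CPM in control, 4.45, 5.09 and 4.94 with G7, 0.43) and AREG (3.10, 2.95 and 2.38 and 3.94, 3.17 and 4.29, 0.46) were higher and the ligand BTC lower (-0.40), all at low levels and near the threshold (adjusted p = 0.0294, 0.0497 and 0.0476). These 3 calls ended without G7 replicate 3 (adjusted p = 0.0605, 0.145 and 0.164). The co-receptor ERBB3 had 151, 158 and 167 CPM and 142, 136 and 135 (-0.20 ± 0.044), the ubiquitin ligase CBLB 112, 115 and 106 and 82.8, 83.3 and 90.7 (-0.38), and the feedback inhibitor ERRFI1 changed by 0.18.

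Among 21 tested genes of ERK feedback and output, 9 were higher and 1 lower, with a median of 0.14. The phosphatases DUSP5 (62.1, 61.3 and 63.4 CPM in control, 84.7, 82.2 and 77.2 with G7, 0.38) and DUSP6 (0.31), the inhibitor SPRY4 (0.40), the ETS factor ETV5 (0.27) and PHLDA2 (0.62) were among them. DUSP5 and DUSP6 were higher with G7 than with G1 (0.02 and 0.11, adjusted p of the difference 7.4e-06 and 0.00409). Of 16 other receptor kinases linked to bypass of EGFR, 3 were higher (18.8%, against 13.1% of all tested genes) and 0 lower. The median of this list was 0.03. The 3 were EPHA2 (92.3, 91.2 and 99.8 CPM and 132, 121 and 121, 0.40), FGFR1 (5.82, 6.25 and 5.30 and 8.94, 8.88 and 8.57, 0.61) and MET (0.20). In the BCL2 and IAP families 4 of 26 were higher (15.4%) and 3 lower (11.5%), near the 13.1% and 9.64% of all tested genes. BCL2L1 was at 0.30, and the pro-apoptotic BMF and BCL2L11 (BIM) at -0.37 and -0.20. The call of BCL2L11 ended without control replicate 1 or 3, and without G7 replicate 1 or 2.

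NF-kB targets and cytokines were higher at 7 of 24 genes and lower at 0, with a median of 0.08. CXCL8 had 31.6, 26.4 and 27.2 CPM in control and 43.9, 44.4 and 41.5 with G7 (0.61 ± 0.067), and the feedback inhibitors NFKBIA (0.36) and TNFAIP3 (0.33) were higher. All 3 were higher with G7 than with G1 (0.19, 0.10 and -0.14; adjusted p = 3.7e-05, 0.000111 and 7.03e-06). The interferon and antigen presentation list had 2 higher and 2 lower of 28 (median -0.06), a share below that of all genes.

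Structural genes changed in smaller steps. Of 31 tested actin cytoskeleton genes 17 were higher and 0 lower (median 0.17), ACTB from 1502, 1619 and 1629.9 CPM to 1984, 1929 and 2202 (0.36), and GAPDH, like ACTB a common reference gene, rose by 0.22. Of 20 lamina and nuclear bridge genes 10 were higher and 3 lower, LMNB2 at 0.56 and LMNB1 at 0.45 against SYNE1 at -0.84 and SYNE3 at -0.50. In the matrix list the laminin chain LAMA4 fell from 117, 115 and 116 CPM to 70.1, 65.9 and 69.6 (-0.76 ± 0.045) and LAMA5 changed by -0.50, while the collagen receptor ITGA2 rose from 462, 471 and 440.5 to 618, 627 and 619 (0.44 ± 0.04). Among splicing factors the kinases CLK1 and CLK4 (-0.43 and -0.40), the SR proteins SRSF5 and SRSF6 (-0.24 and -0.28) and HNRNPH1 (-0.40) were lower, and 10 of the 32, including HNRNPA2B1 (0.37) and PTBP1 (0.30), were higher. NRF2 targets had 12 higher and 1 lower of 24, with the reductase AKR1B10 going from 869, 827 and 826 CPM to 1527, 1516 and 1452 (0.83 ± 0.044).

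**Figure D4:**
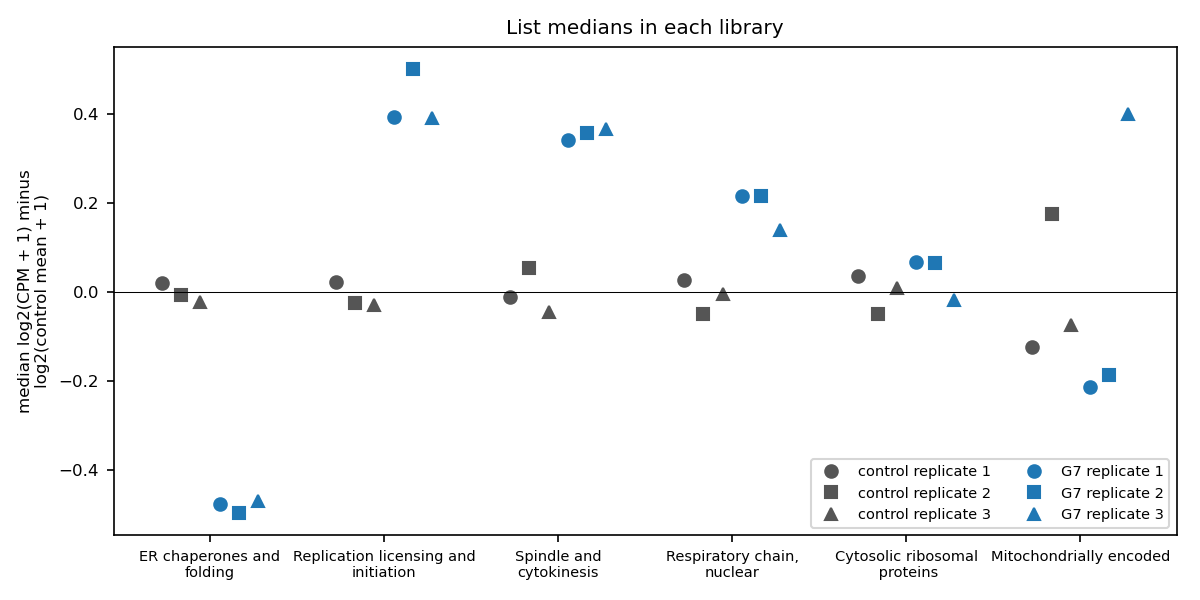
Median over the tested genes of 6 lists of log2(CPM + 1) minus the log2(mean control CPM + 1) (vertical axis), one symbol per library, control in grey and G7 in blue. The 3 G7 libraries sit together for ER chaperones (-0.50 to -0.47) and apart for mitochondrially encoded genes, where replicate 3 is at 0.40 and replicates 1 and 2 at -0.21 and -0.19.

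The results on mitochondria depended on G7 replicate 3 and on control replicate 2. The 13 mitochondrially encoded genes had 0 calls over the 6 libraries and a median of 0.03, but without G7 replicate 3 the median was -0.20 and 6 of the 13 were lower. With control replicate 2, the control library of highest mitochondrial share, left out as well, 2 of the 13 were lower. MT-ND1, a subunit of complex I, had 8518, 10632 and 9161 CPM in control and 7723, 7834 and 12407 with G7 (-0.02, adjusted p = 0.948; without replicate 3 -0.28, adjusted p = 0.0171). Nuclear genes of the respiratory chain had 32 higher and 0 lower of 68, and 41 higher and 1 lower without G7 replicate 3. Those of cytosolic ribosomal proteins had 2 higher of 67, and 10 without it. With both libraries left out, 28 respiratory chain genes were higher and 1 lower, and 2 ribosomal protein genes were higher. Nuclear genes that departed in replicate 3 by the ranking used were NDUFV3, a further subunit of complex I, with 912, 776 and 809 CPM in control and 479, 589 and 1041 with G7, and WDR66, with 497, 474 and 450.4 and 262, 319 and 563. Neither was called over the 6 libraries (adjusted p = 0.387 and 0.244), and both were lower without replicate 3 (-0.64 and -0.71, adjusted p = 3.69e-05 and 5.54e-06). The ER chaperones and the licensing genes had equal counts either way: without replicate 3 the lower and higher genes numbered 20 and 22, as with it, at medians of -0.50 and 0.47. The cause of the departure was not tested.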

How the data were processed

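Per the labels' protocols, RNA was selected with oligo-dT beads and libraries were strand-specific (dUTP). The deposited values are raw counts of reads per Ensembl gene, without normalization by the authors. TopHat2 2.1.0, HTSeq 0.6.0 and hg38 (GRCh38) are named per the submitters' processing notes. Which annotation release and strand setting were used is not stated in those notes or labels. Skipped overlapping or multi-mapped reads would lower overlapping and near-identical genes.

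Of 60675 rows, 57055 matched GENCODE release 29, which gave symbols and coordinates, and rows without a match held at most 0.0284% of a library. Counts of 9 libraries were filtered with filterByExpr (13264 genes), scaled by TMM and fitted with edgeR 4.0.16 (quasi-likelihood, group means, common dispersion 0.00217) in R 4.3.3. Calls are two-sided, at a Benjamini-Hochberg adjusted p under 0.05 over all tested genes. A count of 0 allows up to 3 counts, 0.134 to 0.236 CPM in these libraries, for counting error only. Tested on simulated data for G7 minus control (12241 genes), 62%, 94%, 96% and 100% of genes changed 1.25-, 1.5-, 2- and 4-fold were recovered and 10 unchanged genes were called. Each replicate pair differed by more than sampling noise, so all libraries were kept apart.

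The comparison, lists and rules were chosen with earlier results of these data known. Named by rule were the HP1 genes, the 15 largest rises and falls, up to 6 called members with the smallest p and the first gene of each list. Further ones were 10 genes each way by difference from G1, and 10 each way by departure of G7 replicate 3. The ranking by difference took only genes called between the hairpins whose change with G7 was larger than or opposite to that with G1. Ranked genes needed a mean of 2 CPM (5 for the last), a call and groups that did not overlap (neither for the last). Other list members named were picked after their values had been seen. Alternatives were RLE and upper quartile scaling, DESeq2 1.42.0, limma 3.58.1 (voom), other filters, thinning, 2 groups only, a replicate block, no mitochondrial genes, glmTreat and each library left out. A further one, added after the data had been seen, left out G7 replicate 3 and control replicate 2 together. Promoters are those of RefSeq, 250 bases before the start.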

Additional observations from a re-analysis of the deposited data

Results flagged for a closer look

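Of the genes named above, 15 were called against control with both hairpins and in opposite directions, and were called between the hairpins by edgeR's quasi-likelihood test (adjusted p from 1.1e-12 for PTGS1 to 8.79e-06 for ADM). Both changes use the same 3 control libraries, while the test of the difference, G1 minus G7, does not use them. These calls and the opposite directions were the conditions of the flag, and many of the 15 came from the ranking by difference. The adjusted p therefore adds no support. Higher with G7 than with G1, the log2 differences were -2.20 for LTB, -2.09 for PTGS1, -1.78 for FGF19, -1.66 for ABCG1, -1.38 for PI3, -1.14 for S100A8 and -0.58 for SLPI. Lower with G7 than with G1, they were 0.66 for ADM, 0.70 for ATG5, 0.71 for CSK, 0.97 for ARRDC3, 1.12 for PEG10, 1.27 for DPY19L1, 1.42 for STC1 and 1.80 for STARD4. The hairpins also differ in how far CBX5 fell, and an effect of either hairpin beyond CBX5 cannot be told apart from one of the degree of knockdown.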

How the results depend on the processing

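The CBX5 log2 change stayed between -0.88 and -0.85 with each library left out in turn. The calls then numbered 2260.0 to 3321 (1350.0 to 1965 higher, 889 to 1356 lower) for G7 against control and 5068 to 6036 for G1 minus G7. Against a change of 1.2-fold (glmTreat) the calls were 297 (169 higher, 128 lower), and against 1.5-fold 10 (5 and 5). Upper quartile scaling gave 1398 higher and 1603 lower. A replicate block gave 3117 calls and CBX5 at -0.86, but same-numbered control and G7 libraries did not vary together (correlations of 0.053, -0.076 and -0.052), so the numbers do not pair them. No direction of a called gene named here reversed. Of 164 such genes, 147 did not lose the call in any of the 20 settings other than glmTreat that gave them a value (ZNF681 and ZNF724 had none in DESeq2 or with 2 groups only). The other 17 lost the call in at least 1: AREG, BTC, EREG, SUV39H2, CBX1, CBX3, LTB, PEG10, PFKFB4, ADM, ATRX, POGZ, SETDB2, BCL2L11, SDF2L1, STARD4 and CDKN2D. CBX1 lost it without control replicate 3 or G7 replicate 2. Apart from glmTreat, STARD4 lost it only with G7 replicate 3 and control replicate 2 left out together. That setting was added after the data had been seen. With glmTreat, 77 of the 164 genes lost the call against 1.2-fold and 87 kept it. Against 1.5-fold, 155 lost it and 9 kept it. G1 minus G7 has no value with the G1 libraries left out. The self-test recovery limits calls below about 1.5-fold, so genes not called may still have changed.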
